A study of Mus musculus with 8 samples.

Results

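The collagen genes were taken as every gene whose mouse symbol has the form Col, a number, a and a number. They were 44 of the 55335 gene IDs in the table, and they are described here across 8 RNA-seq libraries. All were made from MC3T3-E1, a pre-osteoblast cell line established from mouse calvaria. In 4 libraries (TABS 1 to 4) the cells had been cultured for 3 days with TABS, named by the submitters as a Trio-Active bone scaffold, and the sources used here do not give its composition. In the other 4 (HA 1 to 4) they had been cultured for the same 3 days with a scaffold of hydroxyapatite doped with magnesium. All cells were of the same line and none had been cultured without a scaffold, so a gene given as lower in TABS can as well be called higher in HA. The labels do not state whether the 4 libraries of a group are separate cultures, and the p-values therefore cover the spread among the libraries at hand, technical or not. The table's columns are named H1 to H4 and L1 to L4, which the labels tie to TABS and HA in that order. No gene here can check that tie, and all directions below rest on it.

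Collagens are extracellular proteins built of 3 chains wound into a triple helix, which needs a glycine in each triplet of residues. Fibrillar collagens form the banded fibrils that give bone, skin and tendon their tensile strength, and FACIT collagens (fibril-associated collagens with interrupted triple helices) sit on the fibril surface. Network collagens form sheets such as those of basement membranes, beaded-filament collagens form fine filaments around cells, and transmembrane collagens are anchored in the plasma membrane. Osteoblasts lay down a matrix made mostly of the fibrillar collagen I, whose chains are encoded by Col1a1 and Col1a2, and this matrix is later mineralised.

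The genes were grouped by these classes into 11 fibrillar, 9 FACIT, 9 network, 6 beaded and 4 transmembrane genes. The remaining 5 were the 2 multiplexins, Col15a1 and Col18a1, which carry an interrupted helix with large end domains, and 3 genes outside these classes, Col7a1, whose product anchors the skin's basement membrane, Col26a1 and Col28a1. The coding sequences of GENCODE M21 (GRCm38) were searched for unbroken runs of codon triplets that each open with GGN, a glycine codon, on the coding strand. Among the 44 genes the longest run was shortest in Col26a1, at 23 triplets, and this length was taken as the cutoff. That all 44 genes reach it is therefore given and is no check of the symbol rule. Of the other protein-coding genes, 18 reached it too. Those 62 genes were 0.288% of the 21560 protein-coding genes searched, among which the median longest run was 2.0 triplets. The 18 others included Marco, Colq, Colec12, C1qb and Sftpd, which are known proteins with a collagen-like stretch. In the fibrillar genes the run was 216 to 344 triplets long (median 338), against 32 to 113 in FACIT, 39 to 66 in network, 37 to 87 in beaded and 37 to 56 in transmembrane genes. Of the 470 coding exons that lie inside the runs of the fibrillar genes, 284 (60.4%) were exactly 54 bases long and all 470 were a multiple of 9. The FACIT genes had a like share, with 57 of 96 such exons (59.4%) at 54 bases. Among the 24 such exons of the network genes, 2 were 54 bases long. A length that is a multiple of 9 was common to all classes, at 91.7% (network) to 100% of such exons.

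The stretches below show this repeat in the 8 collagen genes that differed between TABS and HA. Each is 54 bases of coding sequence, read 5′ to 3′ on the gene's own strand from GENCODE M21 (GRCm38), with the glycine codon of each triplet in capitals. For the 5 fibrillar genes it is the first 54-base exon inside the longest run, and for the 3 network genes it is the first 54 bases of that run.
Col1a1 (plus strand, exon 8, chr11:94939904-94939957): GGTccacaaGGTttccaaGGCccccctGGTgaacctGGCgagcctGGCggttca
Col3a1 (plus strand, exon 6, chr1:45325360-45325413): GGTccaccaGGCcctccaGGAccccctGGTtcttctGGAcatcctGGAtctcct
Col5a2 (minus strand, exon 10, chr1:45422386-45422439): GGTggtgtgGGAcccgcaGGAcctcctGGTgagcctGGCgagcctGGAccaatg
Col27a1 (plus strand, exon 7, chr4:63245069-63245122): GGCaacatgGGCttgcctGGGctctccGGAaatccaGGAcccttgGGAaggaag
Col2a1 (minus strand, exon 10, chr15:97996489-97996542): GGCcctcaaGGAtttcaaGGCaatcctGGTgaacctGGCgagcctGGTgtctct
Col8a1 (minus strand, exon 4, chr16:57628039-57628092): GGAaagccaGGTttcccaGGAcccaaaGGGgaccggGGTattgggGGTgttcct
Col8a2 (plus strand, exon 4, chr4:126311132-126311185): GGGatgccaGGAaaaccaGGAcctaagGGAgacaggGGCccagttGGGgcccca
Col4a6 (minus strand, exon 27, chrX:141192057-141192110): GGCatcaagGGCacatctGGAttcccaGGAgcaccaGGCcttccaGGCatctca

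Each value is in FPKM (fragments per kilobase of transcript, scaled to the library's fragments), so levels of different genes are given per length. Summed over all genes, the TABS libraries held 304893 to 307263 FPKM and the HA libraries 312629 to 317439, so every TABS total lay below every HA total. Rescaling each library to a fixed sum (TPM) moved the median log2 fold change of all genes tested from 0.0057 to 0.045. In each library 11187 to 11357 genes reached 1 FPKM. Fragment totals were not at hand, so no counting interval can be put on a value. Genes of the mitochondrial genome made up 10.2% to 12.2% of all FPKM in TABS. In HA they made up 12.1%, 12.1%, 13.8% and 14.5% in HA 1 to 4, so HA 3 and HA 4 were the highest of the 8. Beside these, the collagens summed to 1.30%, 1.28%, 1.09% and 1.16% of all FPKM in HA 1 to 4 and to 1.03% to 1.10% in TABS. HA 3 and HA 4 were thus the HA libraries nearest to TABS in summed collagen, and the part of the mitochondrial share in the results was not tested. In such bulk RNA, fewer cells of a kind and less RNA per cell cannot be told apart.

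At 1 FPKM or more in at least 4 of the 8 libraries, 21 of the 44 collagen genes were tested. The 21 each reached 1 FPKM in all 8 libraries. The expressed set was led by Col1a1, Col1a2 and Col6a1, with group means between 634 and 1171 FPKM. Col12a1 and Col6a2 followed at 204 to 259 FPKM, while Col27a1, Col2a1, Col8a1 and Col18a1 stayed between 3.73 and 7.05 FPKM in every library. The other 23 genes were not tested, and their highest value in any library was 1.14 FPKM, in Col15a1. Among them were Col10a1, made by hypertrophic chondrocytes, at 0.248 to 0.382 FPKM, and all 4 transmembrane genes, at no more than 0.254 FPKM. The type IX chain genes Col9a2 and Col9a3 reached 0.459 and 0.242 FPKM, and the cartilage chain gene Col11a2 reached 0.176 FPKM. The 7 untested FACIT genes reached at most 0.459 FPKM, and Col7a1, Col26a1 and Col28a1 at most 0.175 FPKM. Col9a1, Col19a1 and Col13a1 were listed at 0 in all 8 libraries.

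**Figure D1:**
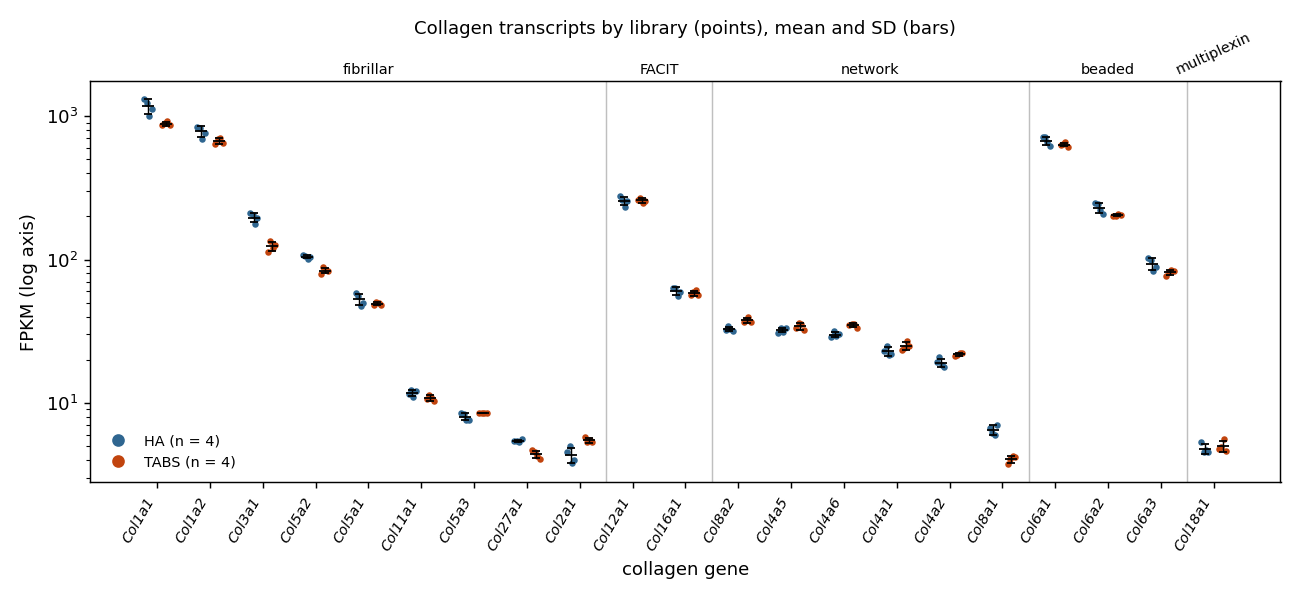
Expression of the 21 tested collagen genes, with FPKM on a log axis, genes grouped by class on the horizontal axis, 1 point per library and a bar at each group mean. Col1a1 stood highest in every library, and for Col3a1, Col5a2 and Col8a1 the 4 TABS points lie below the 4 HA points.

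Of the 21 tested collagen genes, 8 differed between TABS and HA (limma on log2(FPKM + 1), Benjamini-Hochberg adjusted p under 0.05 over all 11280 genes tested), which is 38.1% against 7.38% of all genes tested. Lower in TABS were 5 (against 2.9% of all genes), namely the fibrillar genes Col1a1, Col3a1, Col5a2 and Col27a1 and the network gene Col8a1. Higher in TABS were 3 (against 4.49%), the fibrillar gene Col2a1 and the network genes Col4a6 and Col8a2. The median log2 fold change over the 21 genes was -0.09, beside 0.0057 over all genes tested. The 4 TABS libraries lay below all 4 HA libraries in 6 of the 21 (against 7.15% of all genes) and above them in 4 (against 10.8%). Among all genes 506 were higher and 327 lower, a split that became 915 and 239 when each library was rescaled to a fixed sum (TPM). On the TPM scale the same 8 collagens passed, and Col4a2 passed as higher too.

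The count of 8 rested in part on single libraries. It was 4 without TABS 1, TABS 2 or TABS 3 and 5 without TABS 4 or HA 3, and between 6 and 8 without any of the others. Of the 3 higher genes none passed without TABS 1, TABS 2, TABS 3 or HA 3, and 1 passed without TABS 4 or HA 4. Of the 5 lower genes, Col3a1, Col5a2, Col27a1 and Col8a1 passed whichever library was left out. The GC content of the transcripts had a median of 56.7% over the tested collagens against 50.2% over all genes tested. After each library was corrected for transcript GC content and length, 11 collagens passed, against 8.49% of all genes. In that fit 9 were lower (against 4.03%) and 2 higher (against 4.45%), with Col1a2, Col6a1, Col6a2 and Col6a3 added to the lower genes and Col8a2 no longer passing.

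**Figure D2:**
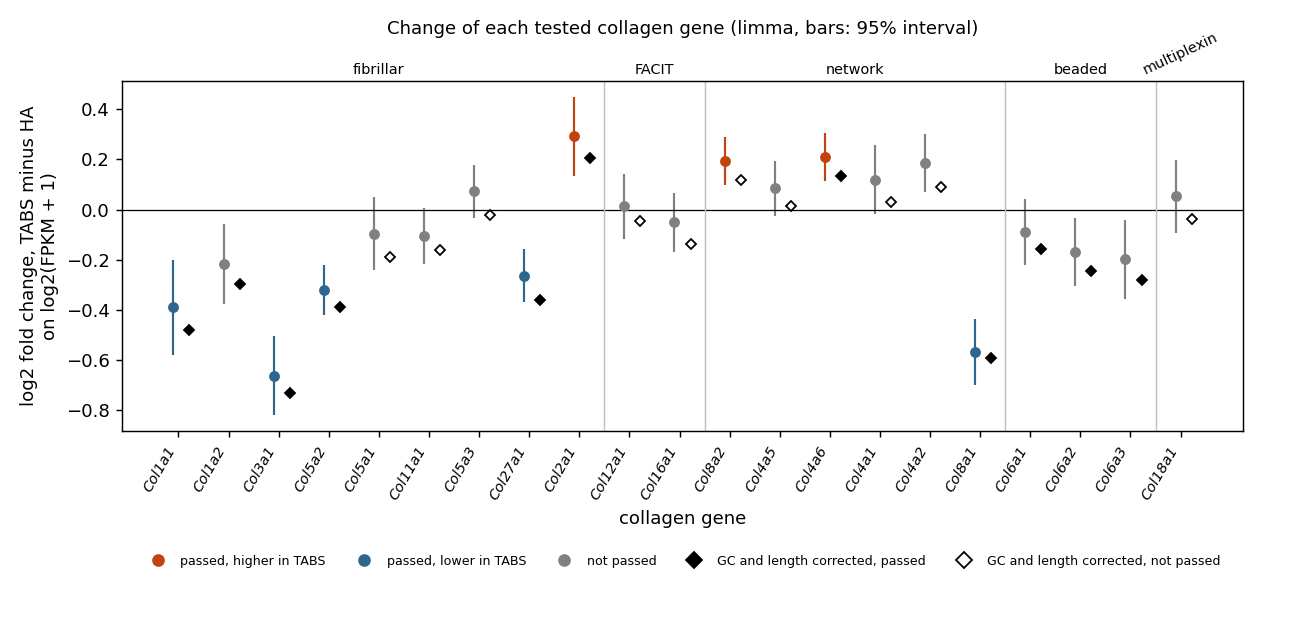
Log2 fold change (TABS minus HA, on log2(FPKM + 1)) of each tested collagen gene, with circles and 95% intervals from limma and diamonds after correction for transcript GC content and length, filled where the gene passed. The corrected values lie below the uncorrected ones, and Col3a1 and Col8a1 have the lowest values in both.

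Among the fibrillar genes, 9 of 11 were tested, of which 4 were lower in TABS (against 2.9% of all genes), 1 was higher (against 4.49%) and 4 did not pass, with a median log2 fold change of -0.22. Col3a1 encodes the chain of collagen III, which forms thin fibrils and mixes with collagen I, and it had the lowest log2 fold change of the tested collagens on the log2(FPKM + 1) scale. As a plain ratio of group means, Col8a1 was slightly lower (0.625 against 0.630). The gene (ENSMUSG00000026043, chr1:45311538-45349706 on the plus strand) measured 113, 134, 121 and 127 FPKM in TABS 1 to 4 and 210.1, 203, 177 and 194 FPKM in HA 1 to 4. Every TABS library lay below every HA library (log2 fold change -0.66, SE 0.07, limma adjusted p = 0.00102). Its exons share 141 bases (1.44%) with a miRNA gene on the same strand, Gm47302, and reads from those bases cannot be told apart.

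Col5a2 encodes a chain of collagen V, which sits inside collagen I fibrils and limits their thickness. It lies next to Col3a1 on chromosome 1 (chr1:45374321-45503282, minus strand), tail to tail with it and 24614 bases away. Col5a2 measured 79.3, 88.6, 84.3 and 82.9 FPKM in TABS 1 to 4 and 107, 106, 101 and 104 FPKM in HA 1 to 4. The groups did not overlap, and the spread within each was small beside the gap between them (log2 fold change -0.32, SE 0.04, limma adjusted p = 0.00366). Its partner chain gene Col5a1 measured 48.2, 50.6, 49.9 and 48.4 FPKM in TABS 1 to 4 and 58.3, 55.9, 47.7 and 49.8 FPKM in HA 1 to 4. HA 3 and HA 4 lay within or below the TABS range there, and Col5a1 did not pass (log2 fold change -0.10, SE 0.06, limma adjusted p = 0.393). Exons of 2 genes on the opposite strand, 2810430I11Rik and Gm13372, share 1.17% and 1.33% of its exonic bases, and without a stated strand setting their reads cannot be told apart from its own. Col5a3, a further chain of collagen V, and Col11a1, a chain of the cartilage-type fibril collagen XI, did not pass either (log2 fold changes 0.07 and -0.11, limma adjusted p = 0.372 and 0.223). For Col5a3 the sign turned after the GC and length correction (-0.02).

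Col1a1, the gene of the main chain of collagen I, measured 869.7, 896, 925 and 866 FPKM in TABS 1 to 4 and 1320.3, 1246, 1001 and 1116 FPKM in HA 1 to 4 (chr11:94936224-94953042, plus strand). HA 1 and HA 2 stood above HA 3 and HA 4, and the lowest HA library, HA 3, was still above the highest TABS library (log2 fold change -0.39, SE 0.08, limma adjusted p = 0.0269). This call was lost without any 1 of TABS 1 to 4 or without HA 2 (limma adjusted p up to 0.0743), and also with no filter on low values and with quantile normalization. With the replicate number as a block Col1a1 did not pass (limma adjusted p = 0.0932). It passed when the GC and length correction was added to the block (limma adjusted p = 0.0333). Col1a2, the gene of the other collagen I chain, measured 637, 694, 709 and 652 FPKM in TABS 1 to 4 and 843, 831, 699 and 764 FPKM in HA 1 to 4. HA 3 lay within the TABS range, and Col1a2 did not pass (log2 fold change -0.22, SE 0.07, limma adjusted p = 0.0966). After the GC and length correction it passed as lower (log2 fold change -0.30, limma adjusted p = 0.0201).

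The remaining 2 fibrillar genes that differed were expressed at a few FPKM. Col27a1, a fibrillar collagen gene known from cartilage, measured 4.66, 4.51, 4.25 and 4.07 FPKM in TABS 1 to 4 and 5.42, 5.45, 5.34 and 5.56 FPKM in HA 1 to 4. All TABS values were below all HA values (log2 fold change -0.26, SE 0.05, limma adjusted p = 0.0120). Col2a1, the gene of the main cartilage collagen, moved the other way and measured 5.79, 5.33, 5.48 and 5.36 FPKM in TABS 1 to 4 and 4.52, 4.96, 3.82 and 3.97 FPKM in HA 1 to 4. The lowest TABS value stood above the highest HA value, HA 2 (log2 fold change 0.29, SE 0.07, limma adjusted p = 0.0393). This call held in 1 of the 8 fits that each left out 1 library, the one without HA 2, with limma adjusted p up to 0.102 in the others, and it was lost with no filter on low values or one of 0.1 FPKM. It was lost with the replicate number as a block too, with or without the GC and length correction. Of 7 chondrocyte markers, Sox9 alone was tested and it did not pass (log2 fold change 0.07, limma adjusted p = 0.369). The cartilage matrix genes Acan, Matn1 and Matn3 were at or near 0 in all 8 libraries, with no value above 0.031 FPKM. Of the other untested markers, Hapln1 lay lower in TABS, at 0.396 to 0.641 FPKM against 0.967 to 1.30 FPKM in HA. Cnmd was lower too, at 0 to 0.121 FPKM against 0.154 to 0.211 FPKM, and Comp overlapped between the groups. The untested Col11a2 and Col24a1 stayed at or below 0.176 FPKM.

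Of the network genes, 6 of 9 were tested, with 2 higher (against 4.49% of all genes), 1 lower (against 2.9%) and 3 that did not pass, and a median log2 fold change of 0.15. Both chain genes of collagen VIII, a short-chain collagen that forms hexagonal lattices and is known from blood vessels and the cornea, differed and in opposite directions. Col8a1 (chr16:57624258-57754737, minus strand) measured 3.73, 4.05, 4.22 and 4.19 FPKM in TABS 1 to 4 and 6.68, 6.20, 5.99 and 7.05 FPKM in HA 1 to 4. The highest TABS value lay well under the lowest HA value (log2 fold change -0.57, SE 0.06, limma adjusted p = 0.000939). Col8a2 (chr4:126286793-126314330, plus strand), the more highly expressed of the pair, measured 36.7, 37.6, 39.6 and 36.7 FPKM in TABS 1 to 4 and 32.4, 34.1, 33.0 and 31.6 FPKM in HA 1 to 4. All TABS values were above all HA values, by less than in Col8a1 (log2 fold change 0.19, SE 0.04, limma adjusted p = 0.0268). The Col8a2 call was lost after the GC and length correction (0.12, limma adjusted p = 0.0821) and held in 2 of the 8 fits that left out 1 library, those without HA 1 and without HA 2. Col8a2 did not pass with the replicate number as a block either (limma adjusted p = 0.0960).

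The other network genes tested encode chains of collagen IV, the sheet-forming collagen of basement membranes, and sit in pairs that start back to back. Col4a6 and Col4a5 lie head to head on chromosome X, 1308 bases apart. Col4a6 measured 35.1, 35.2, 35.7 and 33.2 FPKM in TABS 1 to 4 and 29.0, 31.5, 29.3 and 30.1 FPKM in HA 1 to 4. The TABS values were higher without overlap (log2 fold change 0.21, SE 0.04, limma adjusted p = 0.0193), and the call was lost without TABS 1, TABS 2, TABS 3 or HA 3 (limma adjusted p up to 0.0645). With the replicate number as a block, Col4a6 did not pass either (limma adjusted p = 0.0935). Its neighbour Col4a5 measured 33.4, 36.0, 35.5 and 32.1 FPKM in TABS 1 to 4 and 30.9, 33.2, 31.4 and 33.4 FPKM in HA 1 to 4, overlapped between the groups and did not pass (log2 fold change 0.08, SE 0.05, limma adjusted p = 0.334).

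Col4a1 and Col4a2 lie head to head on chromosome 8 with first exons that overlap by 22 bases. Col4a1 measured 23.3, 24.2, 27.2 and 24.9 FPKM in TABS 1 to 4 and 23.0, 24.96, 21.6 and 21.8 FPKM in HA 1 to 4, with overlapping groups, and did not pass (log2 fold change 0.12, SE 0.06, limma adjusted p = 0.273). Col4a2 measured 21.05, 21.7, 22.4 and 22.2 FPKM in TABS 1 to 4 and 19.4, 20.8, 18.4 and 17.9 FPKM in HA 1 to 4. Its TABS values stood above its HA values without overlap but it did not pass (log2 fold change 0.18, SE 0.05, limma adjusted p = 0.0600). It passed as higher on the TPM scale, with a filter of 5 FPKM and without HA 2 (limma adjusted p = 0.0370 there). The chain genes Col4a3 and Col4a4, which are known from kidney, lung and ear, did not exceed 0.022 FPKM.

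The 3 tested beaded-filament genes encode the chains of collagen VI, which surrounds cells as fine filaments, and none of them passed (2 of 3 at an unadjusted limma p under 0.05). All 3 had negative log2 fold changes, with a median of -0.17. Col6a1 measured 627, 636, 657 and 615 FPKM in TABS 1 to 4 and 712, 714, 656 and 620.0 FPKM in HA 1 to 4. Its groups overlapped, since HA 3 and HA 4 lay among the TABS libraries (log2 fold change -0.09, SE 0.06, limma adjusted p = 0.379). Col6a2 measured 200.2, 203, 208 and 204 FPKM in TABS 1 to 4 and 249, 243, 221 and 208 FPKM in HA 1 to 4. The highest TABS value was just under the lowest HA value, HA 4 (log2 fold change -0.17, SE 0.06, limma adjusted p = 0.123). Col6a3 measured 76.2, 81.8, 83.9 and 83.3 FPKM in TABS 1 to 4 and 102, 99.96, 83.4 and 88.7 FPKM in HA 1 to 4. HA 3 lay among the TABS libraries and the other HA libraries above them (log2 fold change -0.20, SE 0.07, limma adjusted p = 0.124). After the GC and length correction all 3 passed as lower, with log2 fold changes of -0.16, -0.24 and -0.28 and limma adjusted p = 0.0445, 0.0135 and 0.0376. Col6a4, Col6a5 and Col6a6 stayed at or below 0.022 FPKM.

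The FACIT class held 2 tested genes of 9, and neither passed (0 at an unadjusted limma p under 0.05). Col12a1, whose product coats collagen I fibrils, measured 261, 269, 248 and 257 FPKM in TABS 1 to 4 and 276, 261, 233 and 257 FPKM in HA 1 to 4. The groups overlapped throughout (log2 fold change 0.01, SE 0.06, limma adjusted p = 0.916, 95% interval -0.12 to 0.14), and the sign turned after the GC and length correction (-0.04) and without TABS 2 or HA 3. Col16a1 measured 56.5, 59.6, 60.9 and 56.3 FPKM in TABS 1 to 4 and 63.8, 62.9, 55.8 and 59.4 FPKM in HA 1 to 4, again with overlapping groups (log2 fold change -0.05, SE 0.05, limma adjusted p = 0.599). The median of the pair was -0.02, and turned to 0.02 on the TPM scale and with quantile normalization. The multiplexin gene Col18a1, whose product carries endostatin at its end, did not pass (log2 fold change 0.05, SE 0.06, limma adjusted p = 0.670) and lay between 4.54 and 5.62 FPKM.

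Summed within each library, the collagens came to 3249 ± 94.1 FPKM in TABS and 3806 ± 314 FPKM in HA (mean ± SD, n = 4 each). The fibrillar genes made up 1848 ± 68.4 and 2339 ± 230 FPKM of this, the beaded genes 919 ± 21.6 and 999 ± 72.3. For the FACIT genes the sums were 318 ± 8.63 and 318 ± 21.3 FPKM, and for the network genes 158 ± 5.38 and 144 ± 4.91. The fibrillar share of all collagen FPKM was thus 56.9% ± 0.48 in TABS and 61.4% ± 1.26 in HA, with values of 56.3% to 57.3% and 59.5% to 62.3%. The mean shares of the other classes were higher in TABS, at 28.3% against 26.3% for beaded, 9.80% against 8.37% for FACIT and 4.86% against 3.79% for network genes. For beaded genes the groups overlapped, with TABS 2 at 27.82% and HA 3 at 27.83%, and their summed FPKM was lower in TABS. Shares add to a fixed total within a library, so they do not vary independently. These sums are given as a description, and most of the fibrillar sum is Col1a1 and Col1a2.

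Since chains of different genes join in trimers and fibrils, 6 ratios between the FPKM of chain genes were compared with an exact permutation test over the 8 libraries (two-sided, 70 assignments, smallest possible p = 0.0286, adjusted over the 6). In 5 of them the adjusted p was 0.0343, the smallest this design allows with 5 of 6 at the floor. Col1a2/Col1a1 was 0.733, 0.775, 0.767 and 0.753 in TABS 1 to 4 and 0.639, 0.667, 0.698 and 0.685 in HA 1 to 4. The Col1a1 share of the pair was thus higher in every HA library (log2 difference 0.17). Col3a1/Col1a1 was 0.130, 0.150, 0.130 and 0.146 in TABS and 0.159, 0.163, 0.177 and 0.174 in HA. It was lower in TABS (-0.28), so the difference between TABS and HA was larger in the collagen III chain gene than in Col1a1.

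Col12a1/Col1a1 had the largest of the 6 differences, at 0.292 ± 0.0156 in TABS and 0.220 ± 0.0129 in HA (mean ± SD, n = 4 each, log2 difference 0.40). Since Col12a1 itself hardly moved (log2 fold change 0.01), this ratio mostly restates the Col1a1 fold change of -0.39. Within collagen V, Col5a2/Col5a1 was 1.70 ± 0.0442 in TABS and 1.99 ± 0.143 in HA (-0.23). Within collagen VI, Col6a2/Col6a1 was 0.322 ± 0.00708 and 0.340 ± 0.00646 (-0.08). Within collagen IV, Col4a2/Col4a1 was 0.879 ± 0.0380 and 0.837 ± 0.0133, overlapped and did not pass (0.07, exact permutation p = 0.114). With 3 against 4 libraries none of the 5 passed without HA 3 or without HA 4 (exact permutation test, adjusted p from 0.0571 to 0.0686), Col5a2/Col5a1 also not without any 1 of the TABS libraries, and Col6a2/Col6a1 not without any 1 of the HA libraries. Such small groups allow only coarse steps of the exact p, so a lost call does not show dependence on the library left out. The log2 difference kept its sign in all 5 ratios under every alternative, at 0.38 to 0.44 for Col12a1/Col1a1 and 0.15 to 0.19 for Col1a2/Col1a1. Col4a2/Col4a1 passed without TABS 3. A ratio in which Col1a1 is the lower term shares it with 2 others, so these 3 are not independent of each other.

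**Figure D3:**
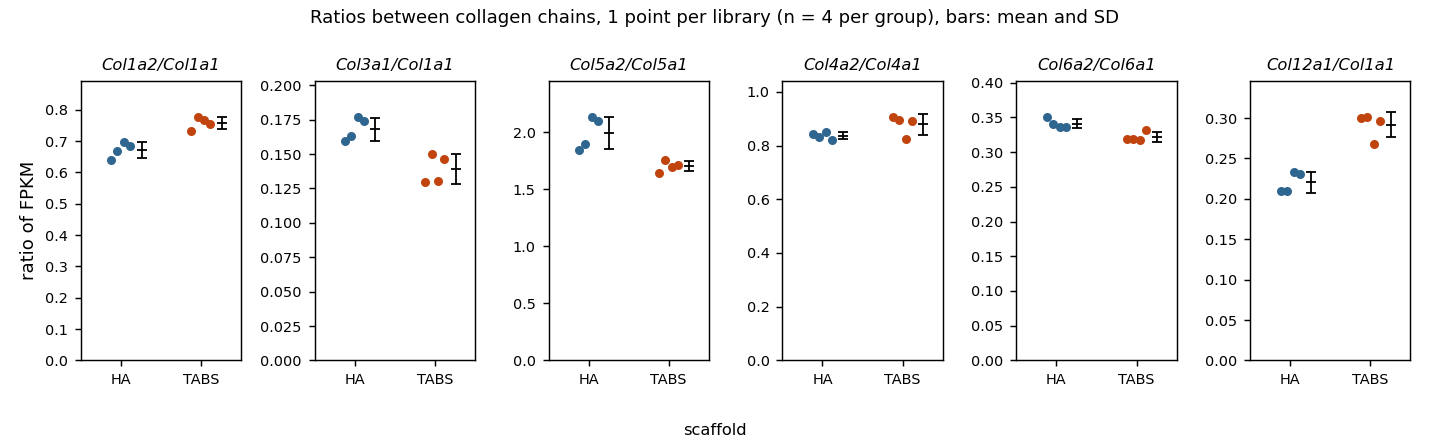
The 6 FPKM ratios between collagen chain genes, 1 panel each, with 1 point per library and a bar at each group mean on a linear axis. The TABS and HA points separate in every panel except Col4a2/Col4a1, where TABS 3 lies at 0.822.

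The genes that modify, move, cut, join and break down collagen were described from 8 lists, in the order in which a chain meets their products. None of the 17 tested genes of hydroxylation, glycosylation and folding passed (4 of 17 at an unadjusted limma p under 0.05, smallest adjusted p 0.0870). This list holds the prolyl and lysyl hydroxylases and the collagen chaperone gene Serpinh1, and its fold changes lay between -0.16 and 0.14 on the log2 scale. None of the 7 procollagen export genes passed either (1 of 7 at an unadjusted limma p under 0.05, smallest adjusted p 0.126).

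Of 5 tested genes of propeptide cleavage, 1 was lower (against 2.9% of all genes) and 1 higher (against 4.49%). Pcolce2, which encodes an enhancer of the protease that trims procollagen ends, measured 4.69, 4.74, 4.84 and 4.82 FPKM in TABS 1 to 4 and 9.67, 8.10, 8.34 and 8.61 FPKM in HA 1 to 4 (log2 fold change -0.74, SE 0.05, limma adjusted p = 0.000340). Adamts14, a procollagen N-propeptidase gene, measured 6.69, 7.51, 7.54 and 6.74 FPKM in TABS 1 to 4 and 5.41, 5.44, 5.28 and 5.11 FPKM in HA 1 to 4 (log2 fold change 0.36, SE 0.05, limma adjusted p = 0.00406). Neither gene overlapped between the groups. The C-propeptidase gene Bmp1 and the N-propeptidase gene Adamts2 did not pass (limma adjusted p = 0.435 and 0.226).

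Crosslinking genes were higher in TABS in 3 of 5 tested (against 4.49% of all genes), and none passed as lower. The other 2 had negative log2 fold changes, down to -0.14. In 1 of these every TABS library lay below every HA library (against 7.15% of all genes). Tgm2, the gene of a transglutaminase, measured 30.5, 31.0, 31.6 and 31.0 FPKM in TABS 1 to 4 and 20.3, 19.7, 20.2 and 19.6 FPKM in HA 1 to 4 (log2 fold change 0.61, SE 0.03, limma adjusted p = 0.000112). The lysyl oxidase family gene Loxl1 measured 12.2, 10.6, 12.3 and 10.6 FPKM in TABS 1 to 4 and 7.93, 8.52, 7.85 and 7.15 FPKM in HA 1 to 4 (log2 fold change 0.49, SE 0.07, limma adjusted p = 0.00397). Both stood apart without overlap in every library. Loxl3, of the same family, was 34.9 ± 1.13 FPKM in TABS and 29.8 ± 1.42 in HA (mean ± SD, n = 4 each, log2 fold change 0.22, SE 0.05, limma adjusted p = 0.0217), a call lost without TABS 1, TABS 2, TABS 3 or HA 3. The Loxl3 call was also lost with the replicate number as a block, with or without the GC and length correction. Lox itself, the most highly expressed of the family, did not pass (-0.05, limma adjusted p = 0.626).

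Among 10 tested genes whose products sit on or beside fibrils, 6 were lower in TABS (against 2.9% of all genes), none was higher, and the median log2 fold change was -0.33. Positive log2 fold changes, up to 0.19, were found in 3 of the 10. In 2 of these every TABS library lay above every HA library (against 10.8% of all genes). Aspn, the gene of asporin, a small leucine-rich proteoglycan that binds collagen, measured 92.3, 108, 84.6 and 100.2 FPKM in TABS 1 to 4 and 201, 201, 209 and 265 FPKM in HA 1 to 4 (log2 fold change -1.17, SE 0.10, limma adjusted p = 0.000652). Ogn, the gene of osteoglycin, measured 129.98, 163, 110.0 and 142 FPKM in TABS 1 to 4 and 265, 251, 289 and 365 FPKM in HA 1 to 4 (log2 fold change -1.09, SE 0.14, limma adjusted p = 0.00257). Postn, the gene of periostin, a matrix protein of periosteum and ligament, measured 187, 219, 171 and 199 FPKM in TABS 1 to 4 and 357, 320.4, 367 and 404 FPKM in HA 1 to 4 (log2 fold change -0.90, SE 0.09, limma adjusted p = 0.000874). In all 3 every TABS value was far below every HA value, and TABS 3 was the lowest and HA 4 the highest library. Sparc, the gene of the collagen-binding bone protein osteonectin, measured 314, 319, 322 and 323 FPKM in TABS 1 to 4 and 454, 429, 403 and 399 FPKM in HA 1 to 4 (log2 fold change -0.40, SE 0.05, limma adjusted p = 0.00262). The other lower genes were Fmod and Dcn (log2 fold changes -0.37 and -0.28, limma adjusted p = 0.0127 and 0.0303), which encode the small proteoglycans fibromodulin and decorin and are named here to complete the count. Fn1, the gene of fibronectin, and Bgn, the gene of biglycan, did not pass (0.19 and -0.07, limma adjusted p = 0.109 and 0.518).

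Of 6 tested collagen receptor genes, 1 was higher (against 4.49% of all genes), Mrc2, whose product takes up collagen fragments into the cell. It measured 97.0, 95.1, 95.7 and 90.8 FPKM in TABS 1 to 4 and 69.8, 70.3, 63.8 and 64.6 FPKM in HA 1 to 4 (log2 fold change 0.49, SE 0.05, limma adjusted p = 0.000718), with no overlap. The receptor genes Ddr1, Ddr2, Itga10, Itga11 and Itgb1 did not pass. Of 10 tested genes of collagen breakdown, 2 were higher (against 4.49% of all genes) and 1 lower (against 2.9%). The metalloproteinase inhibitor gene Timp2, among the most highly expressed genes described here, measured 1646, 1589, 1626 and 1548 FPKM in TABS 1 to 4 and 1207, 1316, 1266 and 1246 FPKM in HA 1 to 4 (log2 fold change 0.35, SE 0.05, limma adjusted p = 0.00472), a call lost with no filter on low values. Timp3 was 67.8 ± 2.63 FPKM in TABS and 58.0 ± 3.62 in HA (mean ± SD, n = 4 each, log2 fold change 0.22, SE 0.05, limma adjusted p = 0.0378), a call that held in 1 of the 8 fits that left out 1 library, the one without HA 4, and was lost with no filter and with quantile normalization. Mmp13, the gene of a collagenase of bone and cartilage, measured 137, 137, 133 and 131 FPKM in TABS 1 to 4 and 165, 159.8, 165 and 184 FPKM in HA 1 to 4 (log2 fold change -0.32, SE 0.05, limma adjusted p = 0.00674). Timp2, Timp3 and Mmp13 did not overlap between the groups, and all 3 calls were lost with the replicate number as a block. Collagen breakdown itself was not tested. The gelatinase gene Mmp2, the membrane-type gene Mmp14 and the cathepsin gene Ctsk did not pass (0.02, 0.13 and 0.01).

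Among 8 tested genes of transcription factors known to act on collagen genes, 1 was higher (against 4.49% of all genes) and 1 lower (against 2.9%). Smad3, which carries TGF-beta signals, measured 15.997, 16.04, 16.4 and 15.7 FPKM in TABS 1 to 4 and 12.1, 14.2, 13.1 and 12.1 FPKM in HA 1 to 4 (log2 fold change 0.30, SE 0.05, limma adjusted p = 0.0120). The Smad3 call was lost with the replicate number as a block. Sp7, the gene of the osteoblast factor osterix, measured 10.8, 10.8, 10.6 and 10.99 FPKM in TABS 1 to 4 and 15.7, 16.7, 15.4 and 14.6 FPKM in HA 1 to 4 (log2 fold change -0.49, SE 0.05, limma adjusted p = 0.000710). Both separated the groups in every library. Runx2, Sox9, Sp1, Yy1, Egr1 and Scx did not pass.

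**Figure D4:**
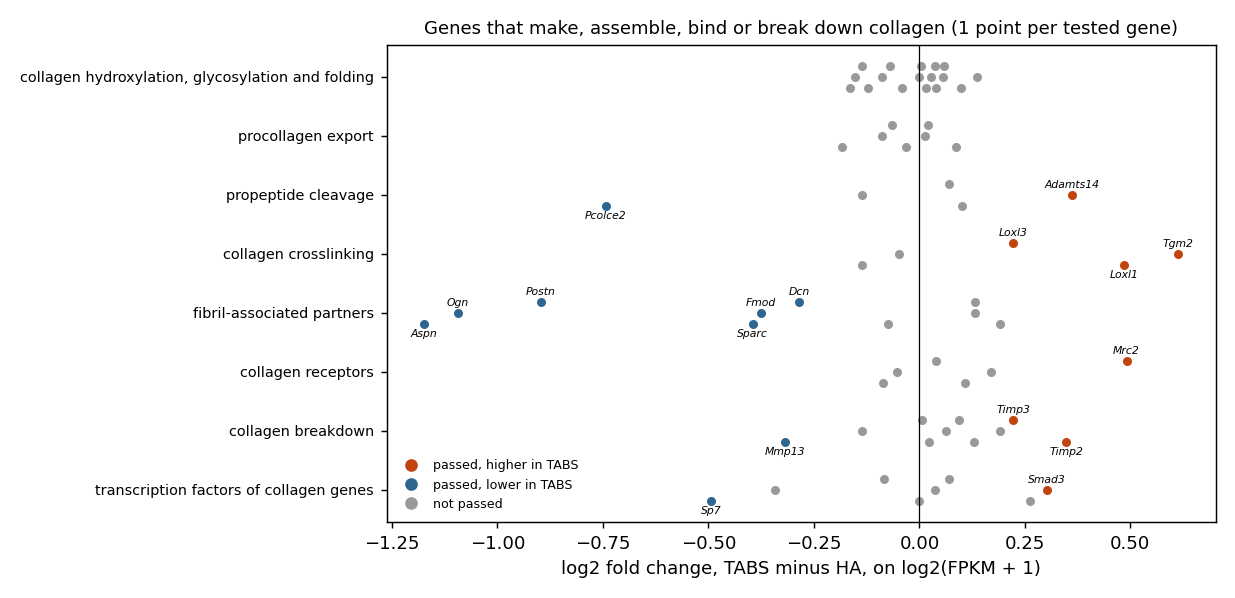
Log2 fold change (TABS minus HA, on log2(FPKM + 1)) of every tested gene in 8 lists of genes that make, assemble, bind or break down collagen, 1 point per gene, with those that passed in colour and named. The lowest values are those of Aspn, Ogn and Postn among the fibril-associated partners, and the highest is that of Tgm2.

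Markers of the cell line's own lineage and of other cell types moved beside these genes. Of 9 osteoblast lineage markers, all tested, 2 were higher in TABS (against 4.49% of all genes) and 5 lower (against 2.9%), and their summed FPKM was 3493 to 3972 in TABS and 2661 to 3168 in HA, most of it Spp1. Sparc, Sp7 and Runx2 of this list also stand in the lists above. The higher ones were Spp1, the gene of osteopontin (log2 fold change 0.45, SE 0.09, limma adjusted p = 0.0207), and Dmp1, the gene of a dentin and bone matrix protein, at 31.7, 29.5, 34.1 and 31.0 FPKM in TABS 1 to 4 and 15.8, 15.9, 20.9 and 17.7 FPKM in HA 1 to 4 (log2 fold change 0.82, SE 0.09, limma adjusted p = 0.000999). The lower ones included Ibsp, the gene of bone sialoprotein, at 12.8, 14.5, 14.7 and 15.96 FPKM in TABS 1 to 4 and 55.2, 48.9, 46.8 and 50.2 FPKM in HA 1 to 4 (log2 fold change -1.73, SE 0.07, limma adjusted p = 1.51e-05). Alpl, also counted as lower, lay at 0.373 to 0.518 FPKM in TABS and 1.13 to 1.80 FPKM in HA. It reached 1 FPKM in the 4 HA libraries only, so it was tested only through the group where it is high. Of 5 smooth muscle or myofibroblast markers, Acta2 and Tagln were tested and both were lower (log2 fold changes -0.70 and -0.37, limma adjusted p = 0.000926 and 0.00856). The list summed to 109 to 133 FPKM in TABS and 180.0 to 208 FPKM in HA, while Cnn1 and Myh11 did not exceed 0.059 FPKM. Of 4 epithelial markers Krt14 was tested and lower, with list sums of 1.21 to 1.60 FPKM in TABS and 2.47 to 3.75 in HA, and Epcam was at 0 in all 8. Of 3 tenocyte and 4 adipocyte markers 1 each was tested, Scx and Fabp4, and neither passed. None of the 4 endothelial and 4 blood cell markers was tested, with sums of at most 0.372 and 0.499 FPKM. The part of these marker genes in the collagen results was not tested.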

How the data were processed

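RNA of 8 MC3T3-E1 libraries was measured as paired reads of 150 bases from NEBNext Ultra libraries, with an RNA integrity number above 7, per the labels' protocols. The authors deposited 1 FPKM value per gene and library. The submitters' processing notes name GRCm38, fastp, STAR and DESeq2, and the sources used here give no versions, roles, counting program or strand setting. Library names in the labels tie columns to groups, and 16 empty columns were not used. Gene IDs were matched to GENCODE M21 (55154 of 55335), and the longest transcript of each gene's own biotype gave GC content, length and coding sequence. Genes at 1 FPKM or more in at least 4 libraries were fitted with limma 3.58.1 (R 4.3.3) on log2(FPKM + 1), with a trended variance and no block, and adjusted p under 0.05 was the threshold. A fold change on this scale understates the change of low genes. Whole reads could not be recovered from the FPKM steps, so no count test was run. The alternatives were other pseudocounts, filters, scalings and variance settings, the replicate number as a block, a GC and length correction (natural splines, 5 df) and leaving out each library. Named were every collagen that passed or had an adjusted p under 0.1, the 2 most highly expressed of each class, both genes of each ratio and up to 4 passing genes per list. The collagen genes, classes, ratios and lists were chosen with earlier results of these data known.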

Additional observations from a re-analysis of the deposited data

Results flagged for a closer look

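In each group of 4 libraries the highest and lowest values of the tested collagens, class sums and ratios were compared with Dixon's 95% critical value for the gap to the nearest other library divided by the range of the group. Of 64 groups tested 3 exceeded it, where chance flags about 1 in 20. The Col4a2/Col4a1 ratio was 0.822 in TABS 3, with the other TABS libraries at 0.893 to 0.904. The Col12a1/Col1a1 ratio was 0.268, also in TABS 3, with the others at 0.297 to 0.301. The Col6a2/Col6a1 ratio was 0.332 in TABS 4, with the others at 0.317 to 0.319.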

How the results depend on the processing

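Over all 11280 genes tested, the count of 833 was 542 with no filter on low values and 415 to 718 when 1 library was left out. For the collagens, the count of 8 was 4 to 8 when 1 library was left out, that of higher genes 0 to 4, that of lower genes 4 to 5 and that of lower fibrillar genes 3 to 4, and the lower genes numbered 9 after the GC and length correction. The pathway genes that passed numbered 17 over the 8 lists, whose numbers of tested genes are given above (against 7.38% of all genes tested). They numbered 14 to 17 when 1 library was left out. Of the 6 ratios 5 passed, and 0 to 5 when 1 library was left out, where the exact p moves in coarse steps. Col3a1, Col5a2 and Col8a1 passed under all 21 alternatives, and Col27a1 under all but the replicate block. Signs turned, with no call involved, for Col12a1 (-0.045 after the GC and length correction, with or without the block, and from -0.032 to 0.050 when 1 library was left out), for Col18a1 (-0.037) and for Col5a3 (-0.020) after the same correction with or without the block, and the cause was not tested. Col18a1 had no value with a filter of 5 FPKM. Both groups carry replicate numbers 1 to 4, but same-numbered libraries did not deviate together (correlations 0.10, 0.05, -0.10 and -0.06, with replicate 1 alone correlating best with its own number). The labels name no pairing, and these correlations cannot exclude that same-numbered libraries were handled together. Fitted with a replicate block, 230 genes passed (334 with the GC and length correction as well), 3 collagens (5), 0 higher (0) and 3 lower (5), 2 lower fibrillar genes and 11 pathway genes. With signs flipped within same-numbered pairs 0 ratios passed, a design whose smallest possible p is 0.125. FPKM gives no depth, so what depth limits in the low genes cannot be stated.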
